A study of Danio rerio with 13 samples.

Results

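The genes described here encode the adhesion receptors of the embryo and their closest cytoplasmic partners: cadherins, α- and δ-catenins, and integrin α and β subunits. They were taken by name from the table of 27911 zebrafish genes, as every lower-case name that began with *cdh* and a digit, *itga*, *itgb*, *ctnna* or *ctnnd*, with the endothelial cadherin *cdh5* left out. 58 entries met this rule: 18 cadherins, 6 catenins, 20 integrin α subunits, 12 integrin β subunits, and 2 integrin-related genes (*itgb1bp1* and *itgbl1*). 24 of the 58 had a mean of at least 1 RPKM (reads per kilobase of gene, scaled to the mapped reads of the library) over all libraries, and counts of members below are out of those 24. The same minimum left 11690 of all genes, which give the background for each count.

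Cadherins are transmembrane proteins that bind the same or a related cadherin on the next cell, and catenins tie their tails to actin: p120-catenin (*ctnnd1*) holds the cadherin at the membrane and α-catenin (*ctnna1*) makes the link to filaments through β-catenin. Integrins work as pairs of an α and a β subunit that bind the extracellular matrix, and the α subunit largely sets the ligand, such as fibronectin, laminin or collagen. Cranial neural crest cells (NCCs) leave an epithelium, migrate over fibronectin-rich matrix into the pharyngeal arches, and there become the skeletogenic mesenchyme of the face, so cadherins and integrins are commonly used to tell epithelial, migratory and mesenchymal states apart.

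The study sorted cells by 2 transgenes carried by all embryos, *fli1a*:EGFP and *sox10*:DsRed, and sequenced RNA from 13 pools of embryos. DsRed marks NCCs of all kinds together with the ear, EGFP marks vessels and macrophages as well as arch NCCs, and double-positive cells were taken as arch NCCs. Double-positive cells came from wild types at 20, 28 and 36 hours post-fertilization (hpf), and 36 hpf wild types also gave the *fli1a*:EGFP-only cells (named on the labels as mixed/vasculature) and the *sox10*:DsRed-only cells (mixed/ear). The other 8 libraries were double-positive cells at 36 hpf. Embryos for 36 hpf were kept at 22 °C from 27 hpf, so stage and temperature cannot be told apart between 36 hpf and the earlier stages. *edn1* mutants (allele tf216) lack the ventral signal Endothelin 1 and were picked by arch shape. *jag1b* mutants (b1105) lack the Notch ligand Jagged1b, and their wild-type siblings were genotyped alongside them from tail biopsies. Wild types kept in 10 µM DBZ from 24 hpf received a γ-secretase inhibitor that blocks Notch cleavage, and no vehicle-treated library accompanied them. *hsp70I*:Gal4; *UAS*:NICD embryos (kca4, kca3) and *hsp70I*:Gal4; *UAS*:Edn1 embryos (kca4, el249) were heat-shocked at 20 to 24 hpf, which drives the active Notch1a intracellular domain or Edn1 throughout the embryo and not only in the arches. Heat-shocked embryos with *hsp70I*:Gal4 alone or *UAS*:Edn1 alone were their controls.

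Each group was 1 library made from pooled embryos, so the spread between replicates is unknown and no test was made. In place of replicates, each value is set beside 2 control libraries where they exist: wild types and *jag1b* wild-type siblings for unshocked embryos, and the 2 heat-shocked controls for the overexpression libraries. A member is called higher or lower at a ratio of at least 1.5 between 2 libraries. Brackets after a ratio hold a 95% interval from the recovered read counts, which covers counting error only and compares those libraries, not the conditions. PCR copies are not independent molecules, so even the counting error is a lower limit. Relative depth ran from 0.687 (*edn1* mutants) to 1.23 (*hsp70I*:Gal4 controls) of the wild-type 36 hpf library. Of 9 arch NCC genes such as *dlx2a*, *hand2* and *prrx1b*, between 8 and 9 reached 1 RPKM in every double-positive library. *edn1* itself was at 0 RPKM in *edn1* mutants but also at 0.0488 in wild types (3 reads) and 0.0636 in the siblings (4 reads), so it checks that label weakly. *edn1* was at 6.31 in Edn1-overexpressing embryos against 0.502 and 0.225 in their controls, *jag1b* at 3.42 in *jag1b* mutants against 18.9 in siblings, and *notch1a* at 31.0 with NICD against 3.44 and 3.26. Because these are bulk pools, fewer cells of a type and less RNA per cell cannot be told apart.

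Most of the 58 genes were barely detected in arch NCCs. 34 fell under the mean of 1 RPKM, and 17 of those stayed below 1 RPKM in every library, among them *cdh4* (R-cadherin), *cdh17*, *cdh23* (a tip-link cadherin of hair cells), *ctnnd2a*, *itga3b*, *itgb3a* and *itgb8*. The other 17 reached 1 RPKM in at least 1 library, and 11 of them were highest in *sox10*:DsRed-only cells. These 17 were set apart by their highest value, so being high in some library was fixed in advance. No share over all genes is given beside the 11. 2 of the 24 retained genes passed only through their highest library, *itgb2* through 20 hpf and *cdh10a* through the *sox10*:DsRed-only cells, so each was bound to differ there.

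RPKM is a value per length, so levels can be compared between genes. In wild-type arch NCCs at 36 hpf the most abundant member was *cdh11*, a type II cadherin of mesenchyme, at 127 RPKM, followed by *itgb1b* (a β1 subunit, the common partner of most α subunits) at 51.9, *ctnna1* at 30.9, *cdh6* at 26.3, *ctnnd1* at 24.4, *cdh2* (N-cadherin) at 20.5 and *itga5* (the α5 subunit of the fibronectin receptor) at 16.2. The siblings at the same stage had 78.6, 25.2, 26, 40.6, 14.4, 30.9 and 14 RPKM of these genes in the same order. The 2 control libraries therefore shared the leading gene but not the order below it. *cdh11* was the most abundant cadherin in 12 of the 13 libraries. The exception was the *sox10*:DsRed-only library, where *cdh6* led.

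Between 20 and 36 hpf the mix of cadherin RNA in arch NCCs became more dominated by *cdh11*. *cdh11* was at 39.2 RPKM at 20 hpf, 62.3 at 28 hpf and 127 at 36 hpf, with 78.6 in the siblings at 36 hpf. It was thus higher at each later stage, by 1.59-fold from 20 to 28 hpf and by 2.04-fold from 28 to 36 hpf, although only 1.26-fold for the last step with the siblings. *cdh1*, which encodes the epithelial E-cadherin, went the other way: 6.56 RPKM at 20 hpf, 2.09 at 28 hpf, and 0.516 or 0.248 at 36 hpf in wild types and siblings. That is 3.13-fold lower over the first step and 4.05-fold lower over the second, or 8.43-fold with the siblings. Of the RPKM summed over the 18 member cadherins, *cdh11* made up 36.1% at 20 hpf, 46.4% at 28 hpf and 70.2% at 36 hpf (49.9% in siblings). *cdh1* made up 6.04%, 1.56% and 0.286%. These sums leave out *cdh5* and cadherins named in capitals. Epithelial markers followed *cdh1* in part. Over 9 epidermis and pouch genes the sum was 295 RPKM at 20 hpf, 308 at 28 hpf, and 179 or 286 at 36 hpf. *epcam* was at 9.04, 6.28, 0.726 and 0.67 and *cldnb* at 17.2, 12.4, 0.861 and 1.21, but the keratin *krt4* was at 8.04, 48, 20.6 and 59.5, and from 20 to 28 hpf 2 of the 6 compared were higher and 0 lower. The part of other cells in the *cdh1* values was not tested.

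The other abundant cadherins of this tissue were within 1.5-fold at each step. N-cadherin *cdh2* was at 19.2, 27.6 and 20.5 RPKM at 20, 28 and 36 hpf, and at 30.9 in the siblings. *cdh6*, a type II cadherin known from premigratory crest in zebrafish, was at 33.3, 34.7, 26.3 and 40.6 RPKM in the same order. *cdh7*, a type II cadherin known from migrating crest in the chick, was at 7.18, 5.58, 4.97 and 4.63 RPKM. Over the whole span from 20 hpf to the siblings at 36 hpf, *cdh2* was 1.61-fold higher and *cdh7* 1.55-fold lower, and neither reached 1.5-fold in wild types. *cdh10a* was 1.92-fold lower at 28 hpf and then higher by 1.60-fold, or 2.67-fold in siblings, at levels between 0.572 and 1.53 RPKM. Among the catenins, *ctnna1* stayed between 26 and 33.8 RPKM, and *ctnnd1* was at 15.9, 16.5 and 24.4 RPKM but 14.4 in the siblings. *ctnnal1* (α-catulin, a relative of α-catenin) was the catenin that differed, at 1.95, 2.53 and 6.11 RPKM with 4.83 in siblings. It was 2.42-fold higher at 36 than at 28 hpf [2.11 to 2.77], or 1.91-fold with the siblings.

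**Figure D1:**
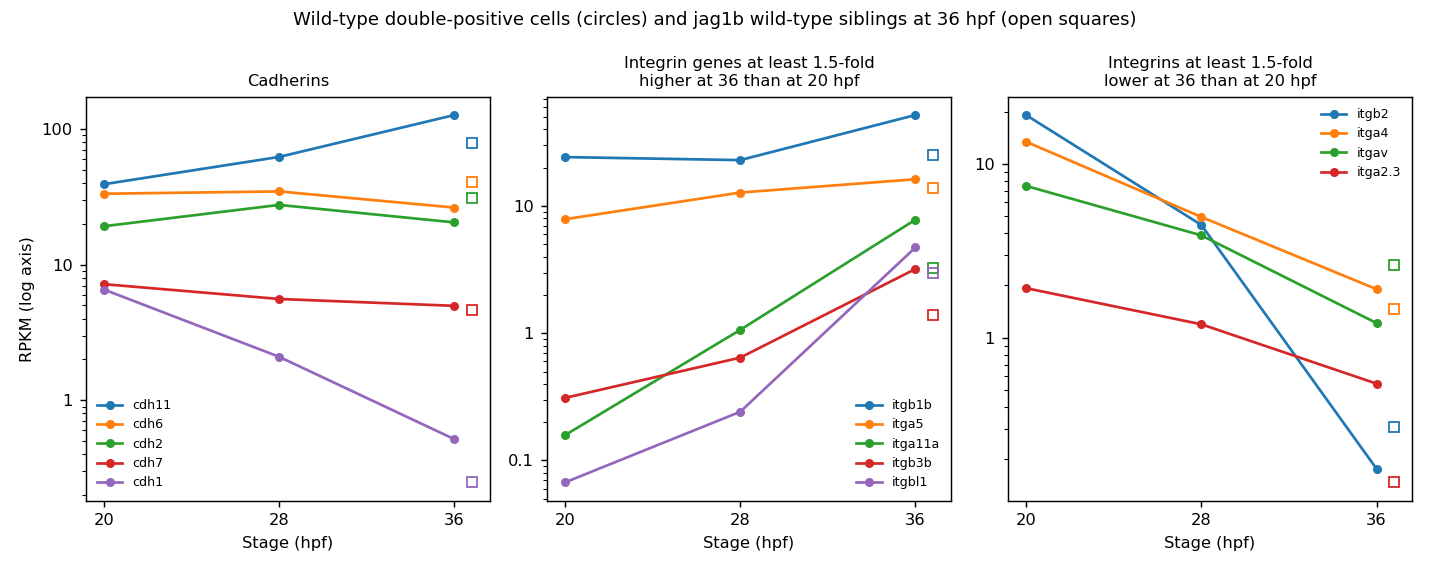
RPKM (log axis) of cadherins and integrin genes in wild-type double-positive cells at 20, 28 and 36 hpf (circles, 1 library each, joined by lines) and in *jag1b* wild-type siblings at 36 hpf (open squares); the right-hand panels are split by the wild-type ratio of 36 to 20 hpf. *cdh11* goes from 39.2 to 127 RPKM while *cdh1* goes from 6.56 to 0.516, and for *itgb1b* the sibling square at 25.2 lies near the 20 hpf value of 24.3.

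Of the integrin subunits among the 24, the collagen-binding α subunit *itga11a* was higher at 36 than at 20 hpf by the largest ratio, 49.5-fold in wild types and 20.7-fold in siblings. It was at 0.158 RPKM at 20 hpf (38 reads), 1.06 at 28 hpf (257 reads) and 7.82 at 36 hpf, with 3.27 in the siblings (802 reads). It was 6.73-fold higher at 28 than at 20 hpf [4.77 to 9.73] and 7.35-fold higher again at 36 hpf [6.45 to 8.41], or 3.07-fold with the siblings. *itgbl1*, which encodes a protein with the EGF-like repeats of β subunits that is no receptor subunit, was at 0.0672, 0.241 and 4.73 RPKM, with 2.95 in siblings. Its ratios were 3.59 and then 19.6, or 12.2 with the siblings. *itgb3b*, a β3 subunit that pairs with αv, was at 0.31, 0.643 and 3.2 RPKM, with 1.39 in siblings. It was 2.07-fold higher at 28 hpf [1.46 to 2.99] and 4.98-fold higher at 36 hpf [4.01 to 6.24], or 2.17-fold with the siblings. For these 3 genes each stage was above the one before it whichever 36 hpf library was used. The sum of 5 muscle genes was higher at each later stage too: 5.27 RPKM at 20 hpf, 16.5 at 28 hpf, 338 at 36 hpf and 100 in siblings. Among the other libraries it was 15.7 and 6.1 in the heat-shocked controls and 221 with DBZ. *actc1b*, *tnnt3b* and *mylpfa* were at least 1.5-fold higher at each step. *myog* went the other way, at 0.713, 0.111, 0.014 and 0.274 RPKM, and *myod1* stayed between 0.333 and 0.613. The part of muscle cells in the values of *itga11a*, *itgbl1* and *itgb3b* was not tested. *itga11b*, the other α11 gene, did not reach 1 RPKM anywhere, and was at 0, 0.04, 0.528 and 0.525 RPKM in the same order (no reads at 20 hpf, 9 at 28 hpf).

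*itga5* was at 7.87, 12.8 and 16.2 RPKM, with 14 in siblings, and was 1.62-fold higher at 28 hpf with a second step of 1.27-fold. *itgav*, which encodes αv, a receptor for RGD-containing matrix proteins, was at 7.48, 3.88 and 1.22 RPKM, with 2.62 in siblings. It was 1.92-fold lower at 28 hpf [1.78 to 2.08] and 3.20-fold lower at 36 hpf, but 1.48-fold lower with the siblings. *itga4*, a fibronectin and VCAM1 receptor subunit of both crest and leukocytes, was at 13.4, 4.96 and 1.9 RPKM, with 1.46 in siblings. It was 2.71-fold lower at 28 hpf [2.5 to 2.93] and 2.60-fold lower at 36 hpf [2.29 to 2.97], or 3.38-fold with the siblings. Within the RPKM summed over the 20 member α subunits, *itga4* made up 25.4% at 20 hpf, 9.41% at 28 hpf and 4.36% at 36 hpf. *itga5* took 14.9%, 24.2% and 37.2%, and *itga11a* took 0.299%, 2.02% and 17.9%. In the siblings these 3 shares were 4.10%, 39.1% and 9.15%.

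A few α subunits peaked at 28 hpf. *itga8*, the receptor subunit for nephronectin, was at 12, 18.4 and 8.69 RPKM, with 8.13 in siblings, which is 1.54-fold higher (1.45-fold after rescaling) and then 2.12-fold lower (2.26-fold with siblings). *itga1*, a collagen and laminin receptor subunit, was at 1.68, 3.72, 2.15 and 2.35 RPKM in the same order. *itga10*, the collagen receptor subunit of cartilage, was under the mean of 1 RPKM, at 0.0389 RPKM at 20 hpf, 1.51 at 28 hpf, 0.546 at 36 hpf and 0.363 in siblings. *itga9*, a tenascin receptor subunit, had its low point at 28 hpf instead, with 3.05, 1.46, 2.76 and 1.6 RPKM.

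Of the β subunits, *itgb1a* hardly differed between stages, at 9.81, 7.68, 8.77 and 7.68 RPKM. *itgb1b* was at 24.3, 23 and 51.9 RPKM but at 25.2 in the siblings, so the 2.26-fold step from 28 to 36 hpf was under 1.5-fold with the other control. Across all 13 libraries *itgb1b* lay between 45.7 and 57.5 RPKM in the wild-type 36 hpf double-positive, both single-positive and the *edn1* mutant libraries, and between 21.4 and 29.7 in the other 9. The labels name no batch, but the high libraries carry the lowest library numbers in the sample descriptions. The paper used HiSeq (50-bp reads) and NextSeq (75-bp reads) machines, and its methods do not say which libraries ran on which. Whether either bears on the split was not tested. *itgb5*, a β subunit that pairs with αv, was at 1.87, 2.22, 3.3 and 2.76 RPKM.

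Counted over all members, 7 of 24 were at least 1.5-fold higher at 28 than at 20 hpf, against 20.5% of all genes, and 7 were lower, against 11%. From 28 to 36 hpf 8 were higher (15.1% of all genes) and 7 were lower (24.6%), of which 5 and 6 kept the call with the siblings. These comparisons share the 28 hpf library. Over the whole span, 6 members were higher at 36 than at 20 hpf with both unshocked controls (*cdh11*, *ctnnal1*, *itga11a*, *itga5*, *itgb3b*, *itgbl1*), against 14.6% of all genes, and 5 were lower (*cdh1*, *itga2.3*, *itga4*, *itgav*, *itgb2*), against 17%. The members had a median log2 ratio of 0.06 in the first step and 0.06 in the second, beside 0.10 and -0.11 for all genes. In the first step the shares of higher and of lower members (29.2% each) stood beside 20.5% and 11% of all genes. In the second step, taken with wild types, the share of higher members (33.3%) was above the background and that of lower members (29.2%) was near it. With the siblings 5 of the 8 higher members kept the call, and no share of all genes is given for calls kept with both. The lower members of both steps and of the whole span include *itgb2*, which passed the filter only through its 20 hpf library. Its place among the lower members of the first step and of the whole span was therefore fixed in advance. Among the fewer members with a mean of at least 3 RPKM, 1 was lower in the first step and 4 were higher in the second.

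*itgb2*, which passed the filter only through its 20 hpf library, had the largest ratio between 20 and 36 hpf among the 24 members. *itgb2* encodes the β2 subunit shared by the integrins of white blood cells. It was at 19.1 RPKM at 20 hpf (3369 reads), 4.46 at 28 hpf (790 reads), 0.176 at 36 hpf (31 reads) and 0.306 in the siblings (55 reads). It was 4.29-fold lower at 28 than at 20 hpf [3.97 to 4.64] and 25.3-fold lower again at 36 hpf [17.7 to 37.5], or 14.6-fold with the siblings. At 20 hpf it made up 32.1% of all β-subunit RPKM in these cells, against 10.7% at 28 hpf and 0.255% at 36 hpf. The next 3 genes were singled out after their values were seen. *itgb7*, the β7 subunit of lymphocytes and other leukocytes in mammals, was at 3.86, 1.99 and 0.0691 RPKM, with 0.188 in siblings. *itgae.2*, an αE subunit that pairs with β7 in mammals, was at 2.7, 1.12, 0.0781 and 0.0728 RPKM. *itgam*, the αM partner of β2, was at 0.422 and 0.0436 RPKM at 20 and 28 hpf and at 0 in both unshocked libraries at 36 hpf. All 4 were highest at 20 hpf.

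Markers of leukocytes moved with these genes. Over 8 macrophage and neutrophil genes, the summed level was 372 RPKM at 20 hpf, 201 at 28 hpf and 5.86 at 36 hpf in wild types, and between 3.87 and 16.4 in the other double-positive libraries at 36 hpf. All 8 reached 1 RPKM at 20 and at 28 hpf, and 1 did at 36 hpf in wild types. The macrophage gene *mpeg1.1* was at 36.6, 3.84 and 0.339 RPKM, *lcp1* at 109, 33.3 and 0.817, the transcription factor gene *spi1b* at 51.8, 13.6 and 0.184, and the neutrophil gene *mpx* at 1.13, 38.3 and 0.437. *itga4* and *itgb2* were lower at 28 hpf as *mpeg1.1*, *lcp1* and *spi1b* were, whereas *mpx* was higher. *fli1a*:EGFP is known to label macrophages as well. The part of leukocytes in the lower values of *itgb2*, *itgb7*, *itgae.2*, *itgam* and *itga4* was not tested.

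**Figure D2:**
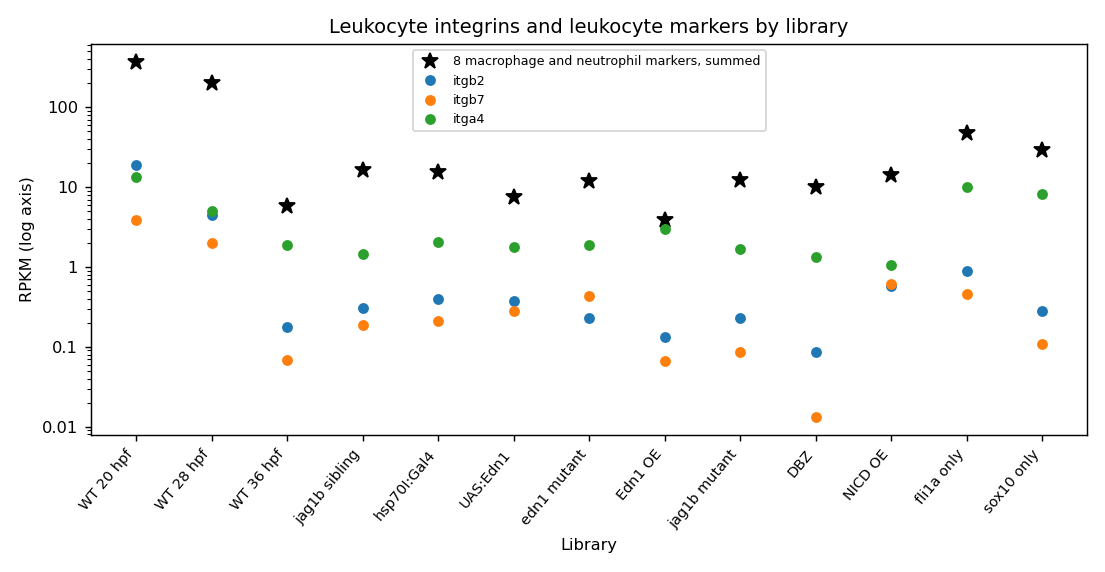
RPKM (log axis) of *itgb2*, *itgb7* and *itga4* and the summed RPKM of 8 macrophage and neutrophil marker genes (stars) in each of the 13 libraries. All 4 are highest in the 20 hpf library, and the marker sum lies between 3.87 and 16.4 RPKM in the 9 double-positive libraries at 36 hpf, below its 47.5 and 29 in the single-positive cells.

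The sorted populations at 36 hpf separated *cdh1*, *cdh11* and *cdh7* more sharply than the stages did. *cdh1* was at 17.5 RPKM in *sox10*:DsRed-only cells, 0.239 in *fli1a*:EGFP-only cells, and 0.516 or 0.248 in the double-positive cells of wild types or siblings. It was 33.8-fold lower in double-positive than in *sox10*:DsRed-only cells, or 70.4-fold with the siblings. *cdh10a* was at 7.06 RPKM in *sox10*:DsRed-only cells against 0.915 and 1.53 in double-positive and 0.342 in *fli1a*:EGFP-only cells, a ratio of 7.72 to the wild-type double-positive cells [6.41 to 9.37]. Because *cdh10a* passed the filter only through the *sox10*:DsRed-only library, it was bound to be high there. *cdh6* was at 41.7 RPKM in *sox10*:DsRed-only cells, 26.3 or 40.6 in double-positive cells and 10.8 in *fli1a*:EGFP-only cells. Only its difference from the *fli1a*:EGFP-only cells held with both controls, at 2.44- and 3.76-fold. *cdh11* was at 127 or 78.6 RPKM in double-positive cells, 78.2 in *fli1a*:EGFP-only cells and 15.9 in *sox10*:DsRed-only cells. It was 7.97-fold higher in double-positive than in *sox10*:DsRed-only cells, or 4.94-fold with the siblings. Against the *fli1a*:EGFP-only cells the ratio was 1.62 or 1.01, and the former was 1.39 after rescaling. *cdh7* was the cadherin that stood higher in double-positive cells than in both other populations with either control: 4.97 and 4.63 RPKM against 1.11 and 1.08. It was 4.49-fold higher than in *fli1a*:EGFP-only cells [3.73 to 5.44] and 4.61-fold higher than in *sox10*:DsRed-only cells. N-cadherin *cdh2* spanned only 16 to 30.9 RPKM over these 4 libraries.

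Several cadherins, catenins and integrins under the mean of 1 RPKM were higher in at least 1 single-positive population than in arch NCCs, most of them in *sox10*:DsRed-only cells. Only genes with that difference are described here, so it is not a separate result. *cdh13* (T-cadherin, which is anchored by lipid and has no cytoplasmic tail) was at 2.61 RPKM in *sox10*:DsRed-only cells (401 reads). It had no reads in wild-type double-positive cells, which makes it at least 141-fold lower at a floor of 3 reads, but it was at 0.133 in the siblings (22 reads). *ctnna2*, the neural α-catenin, was at 2.16 RPKM in *sox10*:DsRed-only cells and at 0.122 and 0.0321 in the double-positive libraries. *itga3a*, a laminin receptor subunit, was at 3.68 RPKM in *sox10*:DsRed-only cells against 0.0955 and 0.0233, but at 0.0387 in *fli1a*:EGFP-only cells. *itgb6*, an epithelial partner of αv, was at 1.82 RPKM in *sox10*:DsRed-only cells against 0.025 and 0.0612. *cdh15* (M-cadherin of muscle) was at 1.77 RPKM in *sox10*:DsRed-only cells and 1.1 in *fli1a*:EGFP-only cells, against 0.154 and 0.258. *itga6a* and *itga6b*, laminin receptor subunits, were at 1.22 and 1.07 RPKM in *sox10*:DsRed-only cells and at 1.02 and 1.67 in *fli1a*:EGFP-only cells. Both were at most 0.575 in the double-positive cells of both unshocked controls. *ctnnd2b*, a neural δ-catenin, was highest in *fli1a*:EGFP-only cells at 5.88 RPKM, with 1.21 in *sox10*:DsRed-only cells and 0.171 and 0.132 in the double-positive cells. Each of these genes was therefore lower in both double-positive libraries than in the single-positive library named. Marker lists differed between the populations too: 9 epidermis and pouch genes summed to 738 RPKM in *sox10*:DsRed-only cells against 179 and 286 in double-positive cells, 6 ear genes to 260 against 42.5 and 81.5, and 8 neuron and glia genes to 235 against 6.3 and 14.9. Of the 5 ear genes compared, 4 were lower in wild-type double-positive cells and *dlx3b* was higher. *dlx3b* was at 35.4 and 76.2 RPKM in double-positive cells against 12.7, and so made up most of their ear sums. In *fli1a*:EGFP-only cells 7 endothelial genes summed to 168 RPKM against 18.7 and 11.9, and 8 neuron and glia genes to 59.4, and red blood cell genes to 41360 against 96.4 and 212. How much each cell type gave to these values was not tested.

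Among the integrins, *itga11a*, *itgb3b* and *itgbl1* were almost absent from *sox10*:DsRed-only cells. *itga11a* was at 0.154 RPKM there (35 reads), 6.35 in *fli1a*:EGFP-only cells, and 7.82 or 3.27 in double-positive cells. It was 50.7-fold higher in double-positive than in *sox10*:DsRed-only cells [36.3 to 73], or 21.2-fold with the siblings. *itgb3b* was at 0.137 RPKM in *sox10*:DsRed-only cells (20 reads), 1.52 in *fli1a*:EGFP-only cells, and 3.2 or 1.39 in double-positive cells, which is 23.4-fold [15 to 38.6] or 10.2-fold over the *sox10*:DsRed-only cells. *itgbl1* was at 0.307, 7.56, 4.73 and 2.95 RPKM in the same order. It was 15.4- or 9.62-fold higher than in *sox10*:DsRed-only cells but 1.60- or 2.56-fold lower than in *fli1a*:EGFP-only cells. None of the 3 was thus higher in double-positive than in *fli1a*:EGFP-only cells with both controls.

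*itga8* was at 8.69 or 8.13 RPKM in double-positive cells, 3.31 in *fli1a*:EGFP-only cells and 1.95 in *sox10*:DsRed-only cells. It was higher than both, by 2.62-fold [2.42 to 2.84] and 4.45-fold, or 2.46- and 4.17-fold with the siblings. *itga5* was at 16.2 or 14, 12.7 and 9.14 RPKM in the same order, and *itgb5* at 3.3 or 2.76, 4.63 and 1.6. *itga4* was lower in double-positive cells (1.9 and 1.46 RPKM) than in *fli1a*:EGFP-only cells (9.96) and *sox10*:DsRed-only cells (8.19), by 5.23-fold [4.64 to 5.92] and 4.30-fold, or 6.80- and 5.59-fold with the siblings. *itga9* was at 2.76 or 1.6 RPKM in double-positive cells, 3.92 in *fli1a*:EGFP-only cells and 5.17 in *sox10*:DsRed-only cells. *itgb2* was at 0.903 RPKM in *fli1a*:EGFP-only cells (137 reads), 5.12-fold above the wild-type double-positive cells [3.45 to 7.82] and 2.95-fold above the siblings. The 8 macrophage and neutrophil genes summed to 47.5 RPKM in that population, and their part in the *itgb2* value was not tested.

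**Figure D3:**
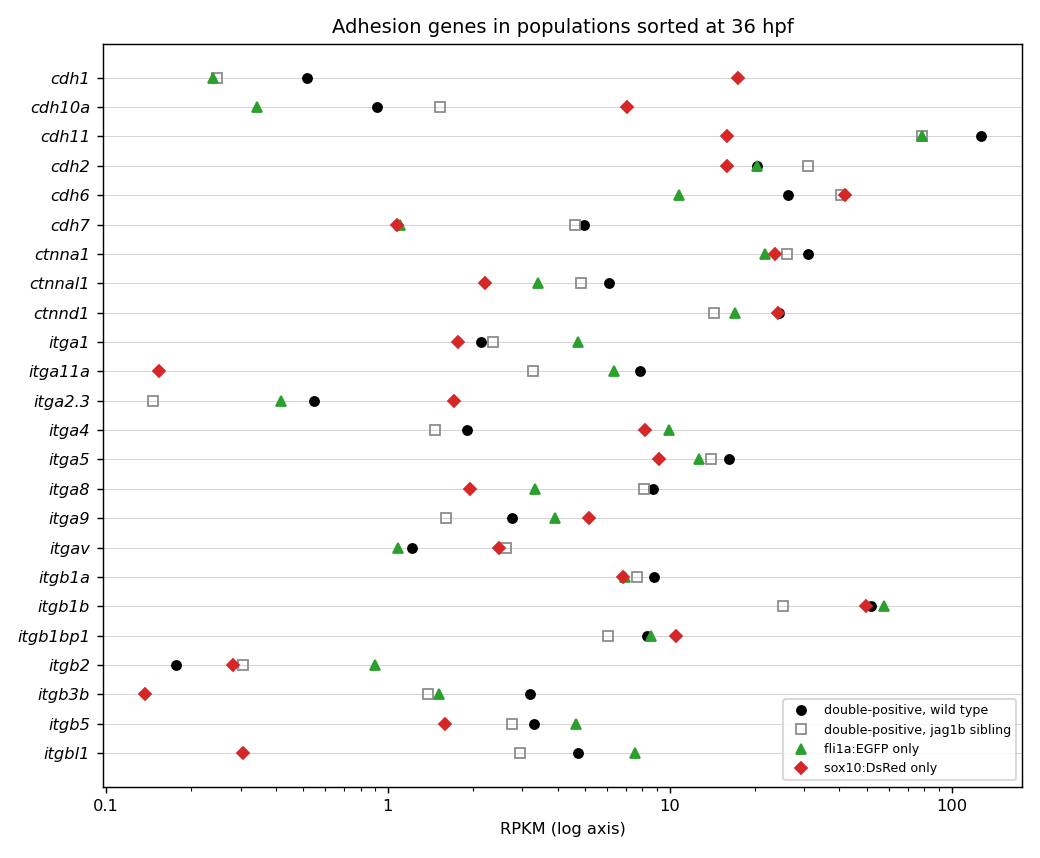
RPKM (log axis) of the 24 members with a mean of at least 1 RPKM in the populations sorted at 36 hpf: double-positive cells of wild types (circles) and of *jag1b* wild-type siblings (open squares), *fli1a*:EGFP-only cells (triangles) and *sox10*:DsRed-only cells (diamonds), 1 library each. *cdh1* and *cdh10a* have their diamond far to the right at 17.5 and 7.06 RPKM, *itga11a* and *itgb3b* have it far to the left at 0.154 and 0.137, and only *cdh7* and *itga8* have both double-positive symbols at least 1.5-fold above both others.

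Compared with *fli1a*:EGFP-only cells, 8 of the 24 members were higher in double-positive cells, against 17.8% of all genes, and 4 of these held with the siblings. 4 were lower (11.8% of all genes), and all 4 held (*itga1*, *itga4*, *itgb2*, *itgbl1*). Against *sox10*:DsRed-only cells 9 were higher (22.9% of all genes) and all 9 held, while 8 were lower (16.4%) and 5 held. The 8 and the 5 include *cdh10a*, which passed the filter only through the *sox10*:DsRed-only library. The median log2 ratio of the members was 0.35 and 0.32 in these comparisons beside 0.22 and 0.15 for all genes. Of 16 members that reached 3 RPKM in wild-type double-positive cells, 5 were at least 1.5-fold above both single-positive populations (*cdh11*, *cdh7*, *ctnnal1*, *itga8*, *itgb3b*), against 9.55% of all genes at that level. With the siblings only *cdh7* and *itga8* stayed so. The sibling ratios to *fli1a*:EGFP-only cells were 1.01 for *cdh11*, 1.42 for *ctnnal1* and 0.914 for *itgb3b*. No share of all genes is given for calls kept with the siblings. Rescaling the libraries to a common median ratio moved the share of called genes that were higher from 60.2% to 33.5% for *fli1a*:EGFP-only cells and from 58.2% to 47.2% for *sox10*:DsRed-only cells.

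The 4 control libraries at 36 hpf show how far members differed without a perturbation. 18 of the 24 were at least 1.5-fold apart between the lowest and highest control, against 59.7% of all genes, with a median of 1.75-fold. The range was widest for *itga2.3* (0.147 to 1.99 RPKM, 13.5-fold), *itgbl1* (0.818 to 4.73, 5.78-fold), *cdh1* (0.248 to 0.843, 3.4-fold) and *itgb3b* (1.02 to 3.2, 3.15-fold), and narrowest for *cdh7* (3.73 to 4.97, 1.33-fold) and *itgb1bp1* (6.05 to 8.3, 1.37-fold). Between the 2 unshocked controls alone, 5 members were at least 1.5-fold higher in siblings than in wild types (13.2% of all genes) and 9 were lower (17.4%). *itgbl1* was lower in both heat-shocked controls (0.818 and 1.07 RPKM) than in both unshocked ones (4.73 and 2.95), the sole member to be so by 1.5-fold, against 1.74% of all genes. *itga2.3* was the sole member higher in both, against 2.51%. Between the heat-shocked controls 3 members were higher with *UAS*:Edn1 than with *hsp70I*:Gal4 (8.67% of all genes) and 0 were lower (7.86%). The wild-type 36 hpf library therefore stood apart from the siblings for many members, and calls against it alone are given below as such. Rescaling moved the share of calls that were higher from 43.1% to 55.3% between the unshocked controls and from 52.5% to 29.7% between the heat-shocked ones.

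In *edn1* mutants, 7 of 24 members were at least 1.5-fold higher than in wild types, against 24.6% of all genes, and 5 were lower, against 11.2%. 6 and 3 of these held with the siblings. For all 6 the siblings lay below wild types, and for all 3 above them, so these calls were bound to hold. No share of all genes is given for calls kept with both unshocked controls. The 24.6% background means that a higher value was common over the whole table, and after rescaling the share of calls that were higher went from 68.6% to 39.6%. After rescaling 3 members, *ctnnd1*, *itgb1bp1* and *itga2.3*, stayed at least 1.5-fold above wild types, while *cdh7* came to 1.48, *itgb3b* to 1.44 and *itga11a* to 1.38, and *cdh2* also came under 1.5. *ctnnd1*, p120-catenin, was at 48 RPKM in *edn1* mutants, against 24.4 in wild types, 14.4 in siblings, and between 13.8 and 19.9 in the heat-shocked controls. It was 1.97- and 3.34-fold above the unshocked controls and above every other library. *itgb1bp1* (ICAP-1, which restrains β1 integrin activation) was at 17.5 RPKM, against 8.3, 6.05, 7.23 and 6.92 in the 4 controls, a ratio of 2.11 [1.9 to 2.35] to wild types and 2.89 to siblings. *cdh7* was at 8.77 RPKM against 3.73 to 4.97 in the controls, 1.77-fold [1.6 to 1.95] or 1.90-fold higher. As deposited, the ratio to wild types was larger for these 3 genes than the ratio between the lowest and highest control. After rescaling the ratio of *ctnnd1* came to 1.66, beside a 1.76-fold range of its controls as deposited.

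*itga11a* was at 12.8 RPKM in *edn1* mutants against 7.82 and 3.27 in the unshocked controls, and *itgb3b* was at 5.48 against 3.2 and 1.39. Both values lay above all 4 controls, of which wild types were the highest. Their ratios to wild types were 1.64 and 1.71. These were smaller than the 2.79- and 3.15-fold ratios between their lowest and highest controls. *cdh2* was at 34.2 RPKM against 20.5 and 30.9, and only the former difference reached 1.5-fold. *itga2.3*, one of several near copies of the collagen receptor gene *itga2* that could share reads, was at 3.58 RPKM (212 reads) against 0.545 (47 reads) and 0.147 (13 reads), but at 1.39 and 1.99 in the heat-shocked controls. On the low side, *cdh6* was at 15.3 RPKM in *edn1* mutants and between 26.3 and 40.6 in the 4 controls, 1.72-fold below wild types and 2.65-fold below siblings. *cdh10a* was at 0.451 RPKM (43 reads), 2.03- or 3.39-fold lower. *itgav* was at 0.79 RPKM against 1.22 and 2.62, 1.54- or 3.32-fold lower. *cdh1* and *itga9* were lower than in wild types alone. 11 members lay above all 4 controls, against 43.5% of all genes, and 5 lay below (19.5%). Endothelial markers summed to 32.1 RPKM in this library against 10.6 to 18.7 in the controls, and muscle markers to 81.7 against 338 in wild types and 100 in siblings. Their part in these differences was not tested.

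Edn1 overexpression, set against the *hsp70I*:Gal4 controls, left nearly all members within 1.5-fold, as it did most of all genes. 1 of 24 was higher, *itga1*, at 3.97 RPKM against 2.49 (5.09% of all genes were higher), but the *UAS*:Edn1 controls had 3.73. 1 was lower, *itgb2*, at 0.133 RPKM (22 reads) against 0.398 (86 reads) and 0.371 (8.59% of all genes), a ratio of 2.98 [1.85 to 5]. The leukocyte marker sum was 3.87 RPKM there against 15.4 and 7.45, and its part was not tested. Several members that were high in *edn1* mutants had their lowest or near-lowest value at 36 hpf here: *itga11a* was at 2.13 RPKM against 2.8 to 7.82 in the 4 controls, *itgb3b* at 0.856 against 1.02 to 3.2, and *itgb1bp1* at 5.61 against 6.05 to 8.3. Others did not: *cdh2*, *cdh7*, *ctnnal1*, *ctnnd1* and *itga5* were above all 4 controls in the mutants but lay within them here. *itga2.3* was above all 4 in both libraries. *cdh6*, low in the mutants, was at 43.2 RPKM, above all 4 controls (26.3 to 40.6). None of these reached 1.5-fold against both heat-shocked controls. 4 members lay above all 4 controls (7.97% of all genes) and 7 below (21.8%).

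**Figure D4:**
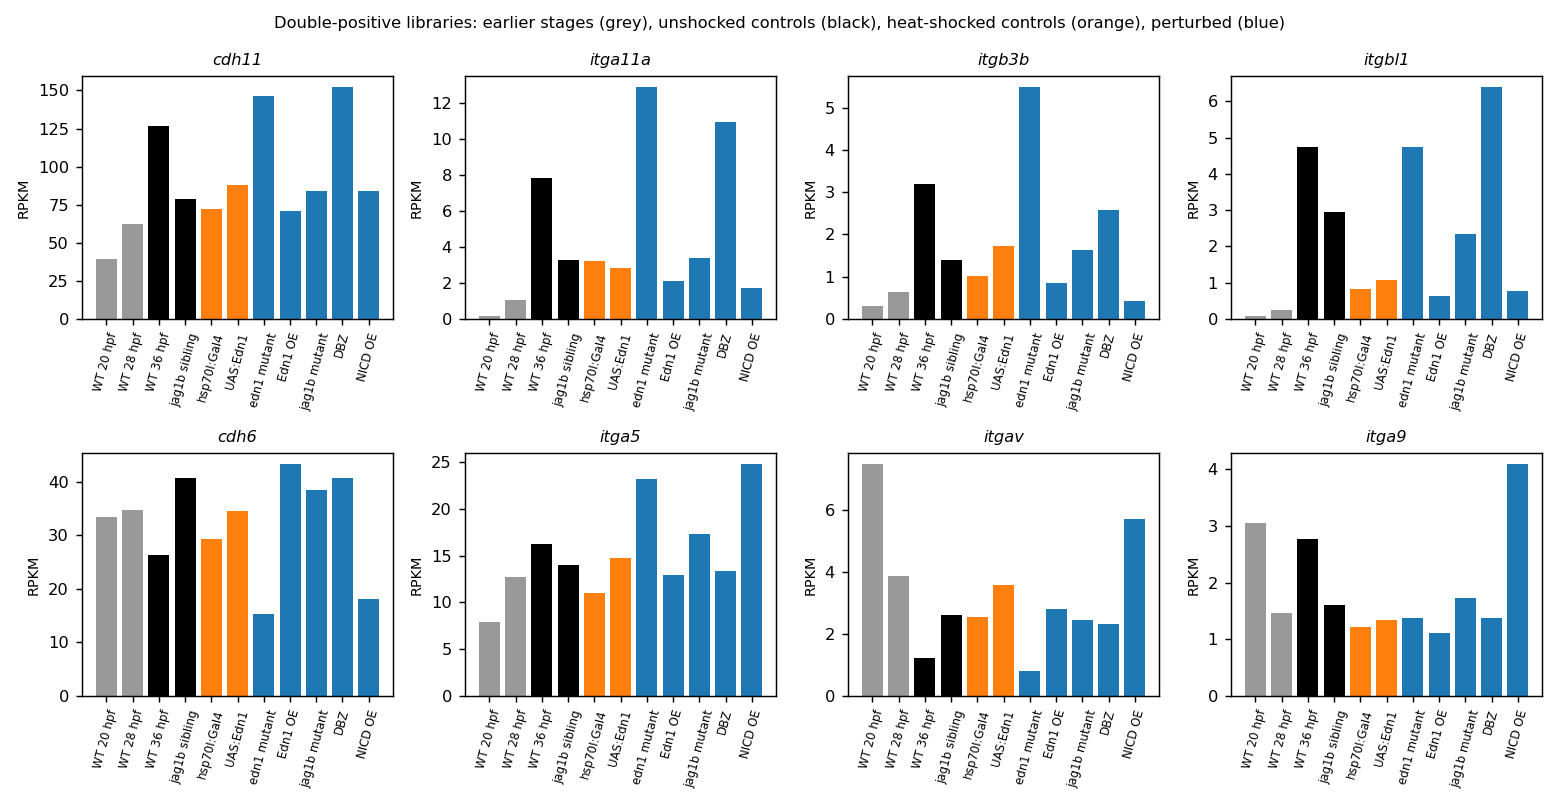
RPKM of 8 members in the 11 double-positive libraries, 1 bar per library from 0: the earlier stages (grey), unshocked controls (black) and heat-shocked controls (orange) at 36 hpf, and perturbed libraries at 36 hpf (blue). *itga11a* and *itgb3b* are lowest at 36 hpf with NICD (1.73 and 0.425 RPKM) and highest in *edn1* mutants (12.8 and 5.48), *cdh6* has its 2 lowest bars in *edn1* mutants and with NICD (15.3 and 18.1), and *itga9* and *itgav* stand at 4.09 and 5.72 with NICD.

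With NICD, 3 of 24 members were higher than with *hsp70I*:Gal4 (12.5%, against 16.6% of all genes) and 4 were lower (16.7%, against 7.72%). All 7 kept the call with the *UAS*:Edn1 controls, but no share of all genes is given for calls kept with both. *itga9* was at 4.09 RPKM with NICD (680 reads) against 1.21 with *hsp70I*:Gal4 (262 reads) and 1.35 with *UAS*:Edn1 (189 reads). It was 3.38-fold higher [2.93 to 3.91], or 3.03-fold with the other control, and above both unshocked controls at 2.76 and 1.6. *itgav* was at 5.72 RPKM against 2.55 and 3.57, 2.24-fold higher [2.05 to 2.45] or 1.60-fold, which made it the highest of the 36 hpf libraries. *itga5* was at 24.8 RPKM against 11 and 14.7, 2.24- or 1.68-fold higher. All 3 lay above every control library at 36 hpf.

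The lower genes included *itga11a* and *itgb3b*, which were higher at each later stage. *itga11a* was at 1.73 RPKM with NICD (391 reads) against 3.19 (941 reads) and 2.8 (536 reads), 1.85-fold lower [1.64 to 2.08] or 1.63-fold. *itgb3b* was at 0.425 RPKM (62 reads) against 1.02 (193 reads) and 1.73 (213 reads), 2.39-fold lower [1.79 to 3.23] or 4.07-fold. *itga4* was at 1.07 RPKM against 2.07 and 1.79, 1.95-fold lower [1.63 to 2.33] or 1.68-fold. *cdh6* was at 18.1 RPKM against 29.2 and 34.4, 1.62- or 1.91-fold lower. *cdh11*, at 84 RPKM against 72.5 and 87.6, and *itgbl1*, at 0.764 against 0.818 and 1.07, did not differ by 1.5-fold from either control. Compared with all 4 controls, 7 members lay above (28.4% of all genes) and 9 below (14.9%). The arch NCC genes summed to 464 RPKM with NICD against 664 and 770 in the heat-shocked controls, and *epcam* was at 8.02 against 4.17 and 1.74. The neuron and glia genes summed to 56.3 RPKM against 31.3 and 22.5, but they went both ways. Compared with *hsp70I*:Gal4, 2 were higher (*sox2*, *foxd3*) and 2 were lower (*elavl3*, *elavl4*). *foxd3* was at 33.3 RPKM against 8.66 and 5.05, and *elavl3* at 3.8 against 8.41 and 8.66. *itga3a*, which was highest in *sox10*:DsRed-only cells, was at 1.91 RPKM with NICD (377 reads) against 0.419 (108 reads) and 0.306. The part of other cells in these values was not tested. Rescaling moved the share of calls that were higher from 68.3% to 56.0%.

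The *jag1b* mutants barely differed from their siblings, in these members as over all genes. 1 of 24 members was higher, *itga2.3*, with 26 reads against 13 (2.37% of all genes were higher) and a ratio of 2.31 [1.15 to 4.91], but it was lower than in wild types at a ratio of 0.626. 0 were lower, against 4.14% of all genes. *cdh11* was at 83.8 RPKM in mutants and 78.6 in siblings, *cdh6* at 38.4 and 40.6, *itga11a* at 3.37 and 3.27, *itgb3b* at 1.62 and 1.39, *itga9* at 1.72 and 1.6, and *itgav* at 2.44 and 2.62. *cdh2* was at 39.5 RPKM against 30.9, and *itga5* at 17.4 against 14, both above all 4 controls but within 1.5-fold of the siblings. 4 members lay above all 4 controls (7.31% of all genes) and 1 below (27%).

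DBZ gave 6 members higher than wild types (14.2% of all genes) and 6 lower (15.6%), shares of which only 2 and 1 members held with the siblings. This comparison and that of *edn1* mutants share the wild-type 36 hpf library. For *itga2.3* the siblings lay below wild types and for *itgb2* above them, so these 2 calls were bound to hold. No share of all genes is given for calls kept with both unshocked controls. *itga1* was at 4.18 RPKM with DBZ against 2.15 and 2.35, 1.95-fold higher [1.78 to 2.13] or 1.78-fold, though the *UAS*:Edn1 controls had 3.73. *itga2.3* was at 1.65 RPKM against 0.545 and 0.147, 3.02-fold higher [2.16 to 4.29], and lay within the range of the heat-shocked controls (1.39 and 1.99). *itgb2* was at 0.0874 RPKM (16 reads) against 0.176 (31 reads) and 0.306, 2.02-fold lower [1.07 to 3.95], and at a ratio of 0.678 with a pseudocount of 0.1 no longer past 1.5-fold. *itga11a* was at 10.9 RPKM with DBZ, above all 4 controls (2.8 to 7.82), and *cdh11* at 152 was above their 72.5 to 127 and the highest of all libraries. Neither reached 1.5-fold against wild types, and both did against siblings, at 3.35-fold for *itga11a* and 1.93-fold for *cdh11*. *cdh2* was at 42.9 RPKM, above the controls at 20.5 to 30.9, by 2.09-fold over wild types and 1.39-fold over siblings. 7 members lay above all 4 controls (17.3% of all genes) and 6 below (25.7%). *itgb4*, the β4 subunit of hemidesmosomes, was highest here at 1.84 RPKM, against 1.38 in wild types and between 0.415 and 0.786 in the other 3 controls. The 9 epidermis and pouch genes summed to 391 RPKM with DBZ against 179 in wild types and 286 in siblings, and 5 of the 6 compared were higher than in wild types. Their part in the *itgb4* value was not tested. Rescaling moved the share of calls that were higher from 47.5% to 57.7%.

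Set side by side, DBZ and NICD placed *itga11a* apart from each other, and so did the 2 Edn1 libraries. In RPKM it was at 10.9 with DBZ and 1.73 with NICD, and at 12.8 in *edn1* mutants and 2.13 with Edn1 overexpression, around controls of 7.82, 3.27, 3.19 and 2.8. *itgb3b* was at 2.59, 0.425, 5.48 and 0.856 RPKM in the same order, around controls of 3.2, 1.39, 1.02 and 1.73. NICD and Edn1 overexpression share the *hsp70I*:Gal4 control library. Both were heat-shocked, whereas DBZ-treated embryos and *edn1* mutants were not. Gain or loss of signal therefore cannot be told apart from heat shock across these libraries. *itga11a* lay above every control with DBZ and in *edn1* mutants, and below every control with NICD and Edn1 overexpression. *itgb3b* did so except with DBZ. The *jag1b* mutants, at 3.37 and 1.62 RPKM, lay within the controls for both genes. Against its own heat-shocked controls, *itga11a* was past 1.5-fold with NICD for both and with Edn1 overexpression for neither. The 5 muscle genes summed to 17.3 RPKM with NICD and 15.6 with Edn1 overexpression, and to 81.7 in *edn1* mutants and 221 with DBZ. Their part in the *itga11a* values was not tested.

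**Figure D5:**
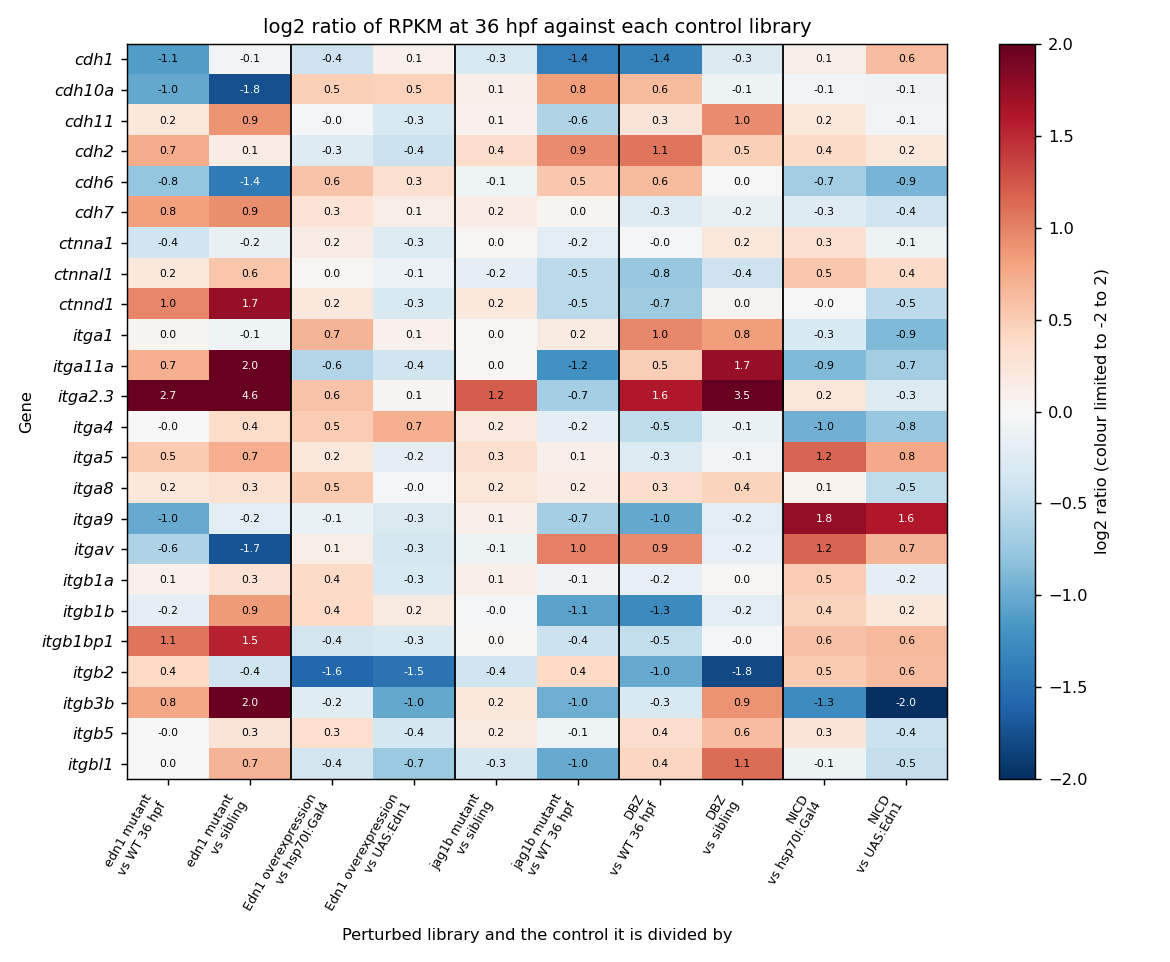
log2 ratio of RPKM for each perturbed library against each of its 2 control libraries at 36 hpf (columns) in the 24 members (the vertical axis), with colour limited to -2 to 2. *itga9* is positive with NICD against both controls, *cdh6* is negative in *edn1* mutants and with NICD against both, and many cells for *edn1* mutants, *jag1b* mutants and DBZ change with the control used.

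The median log2 ratio of the 24 members, beside that of all genes, was as follows: 0.15 beside 0.22 in *edn1* mutants, 0.18 beside -0.05 with Edn1 overexpression, 0.10 beside -0.04 in *jag1b* mutants, -0.10 beside -0.08 with DBZ and 0.23 beside 0.11 with NICD. Between the control libraries it was 0.26 beside 0.14 for the heat-shocked pair and -0.30 beside -0.11 for the unshocked pair. Members went both ways in each comparison, so these medians say little about single genes.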

How the data were processed

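RNA from sorted cells was sequenced by the authors from pooled embryos, 1 library per group. Reads were trimmed (Phred 20, length 25), aligned with TopHat 2 to GRCz10 with Ensembl release 80, and quantified with the Partek E/M algorithm. The deposited table holds the resulting RPKM values, normalized by the authors for gene length and library size. E/M divides reads between overlapping or near-identical genes, so values of *itga2.1*, *itga2.2* and *itga2.3*, of *itgb1b*, *itgb1b.1* and *itgb1b.2*, and of *itgae.1* and *itgae.2* are uncertain. Embryos for the 36 hpf samples were moved at 27 hpf to 22 °C.

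Ratios were taken between deposited RPKM values, with a 0 set to 0.01, over genes with a mean of at least 1 RPKM, and called at 1.5-fold (Python 3.11.15, numpy 2.4.6, pandas 2.3.3, scipy 1.17.1, matplotlib 3.10.9). Low RPKM values are whole multiples of 1 read, so relative depths and whole reads (within 0.06) were recovered for 44 of 58 members, 17 of the 24 compared, and gave exact 95% Clopper-Pearson intervals. *cdh1*, *cdh11*, *cdh6*, *ctnna1*, *ctnnd1*, *itga5* and *itgbl1* have none. The read recovery was tested on simulated data.

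Genes named are members past 1.5-fold that held with the other control library, at most 8 per comparison, plus a list of classical cadherins and integrins. *cdh3*, *cdh10*, *cdh18* and *itga2b* had no entry under those names, and *cdh23* has 2. Other genes were named after their values were seen. Members and lists were chosen with earlier results of these data known. Alternatives were no filter, a mean of 3 RPKM, rescaling by the median ratio, a pseudocount of 0.1, names in any case, and the other control library. Rescaling moved the median log2 ratio of all genes by over 0.1 for *edn1* mutants and *fli1a*:EGFP-only cells (from 0.22 in each), *sox10*:DsRed-only cells (from 0.15) and both control pairs (from 0.14 and -0.11). No protein or promoter sequences were used here.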

Additional observations from a re-analysis of the deposited data

How the results depend on the processing

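No paired analysis was possible because each group was 1 library, so the groups share a single replicate number, given in accession order. Counts of members past 1.5-fold depended most on the filter on low values. With no filter, they went for 20 to 28 hpf from 7 to 21 higher and 7 to 14 lower, for 28 to 36 hpf from 7 to 28 lower, against *fli1a*:EGFP-only cells from 4 to 22 lower, against *sox10*:DsRed-only cells from 9 to 16 higher and 8 to 30 lower, for *edn1* mutants from 7 to 15 higher and 5 to 18 lower, for Edn1 overexpression from 1 to 5 higher and 1 to 17 lower, for *jag1b* mutants from 1 to 7 higher and 0 to 11 lower, for DBZ from 6 to 15 higher and 6 to 16 lower, for NICD from 3 to 12 higher and 4 to 10 lower, between heat-shocked controls from 3 to 9 higher and 0 to 10 lower, and between unshocked controls from 5 to 17 higher and 9 to 18 lower. With a mean of at least 3 RPKM, they went for 20 to 28 hpf to 4 higher and 1 lower, for 28 to 36 hpf to 4 higher and 2 lower, against *fli1a*:EGFP-only cells to 5 higher and 1 lower, against *sox10*:DsRed-only cells to 2 lower, for *edn1* mutants to 1 lower, for Edn1 overexpression to 0 higher and 0 lower, for *jag1b* mutants to 0 higher, for DBZ to 2 higher and 3 lower, for NICD to 1 higher, and between unshocked controls to 2 higher and 4 lower. More or fewer genes enter under these settings by construction, up to all 58 members with no filter. No share of all genes is given for the counts under any alternative, so they show only how the member counts moved. Rescaling took *edn1* mutants from 7 to 3 higher, Edn1 overexpression from 1 to 3 higher, and the heat-shocked controls from 3 to 1 higher and 0 to 1 lower. Counting names in capitals took Edn1 overexpression from 1 to 2 lower and *jag1b* mutants from 1 to 2 higher. With the other control library, counts went for 28 to 36 hpf from 8 to 5 higher, against *fli1a*:EGFP-only cells from 4 to 9 lower, for *edn1* mutants from 5 to 3 lower, for Edn1 overexpression from 1 to 3 lower, for *jag1b* mutants from 1 to 3 higher and 0 to 8 lower, for DBZ from 6 to 1 lower, and for NICD from 3 to 6 higher. A pseudocount of 0.1 kept all 22 counts within 1.5 times. With the other control, 7 single genes changed direction: *itgb3b* against *fli1a*:EGFP-only cells (ratio 0.914), *itgav* (1.06) and *itgb2* (1.08) against *sox10*:DsRed-only cells, *itga2.3* in *jag1b* mutants (0.626), and *itgav* (0.888), *cdh10a* (0.928) and *ctnnd1* (1.03) with DBZ. The cause was not tested. Depth limits genes with few reads: *itgb2* at 36 hpf rests on 16 to 95 reads in the double-positive libraries, and *itga2.3* on 13 in the siblings.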

Other observations

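The cytoplasmic side of the integrin complex was described by 32 linker and kinase genes, of which 26 were in the table and 17 had a mean of at least 1 RPKM. From 28 to 36 hpf 1 was at least 1.5-fold higher (*actn1*, an actinin) and 5 were lower (*ctnnb1*, *tln1*, *tln2a*, *parvab*, *parvg*), against 15.1% and 24.6% of all genes. With the siblings *ctnnb1* (231 RPKM against 283 at 28 hpf), *tln1* (8.49 against 9.14) and *tln2a* (2.27 against 2.95) were no longer past 1.5-fold. *parvg*, a parvin of blood cells in mammals, was at 13.2 RPKM at 20 hpf, 3.74 at 28 hpf, 0.0798 at 36 hpf and 0.221 in the siblings, and *fermt3b*, a kindlin of blood cells, was at 5.69, 2.08, 0.0619 and 0.136. Both were low at 36 hpf where the leukocyte markers were low, whose part was not tested. Talin (*tln1*), which activates integrins, was at 14.9 RPKM with NICD against 8.96 and 9.55 in the heat-shocked controls. 4 genes of the list were higher than the *hsp70I*:Gal4 controls with NICD (*tln1*, *parvg*, *lims1*, *ptk2aa*) and 0 were lower, against 16.6% and 7.72% of all genes, with a median log2 ratio of 0.29 beside 0.11 for all genes. *ptk2aa*, a focal adhesion kinase gene, was at 2.41 RPKM with NICD, below the 2.66 of the *UAS*:Edn1 controls. *parvg* was at only 0.451 RPKM with NICD against 0.249 and 0.184, and passed the mean of 1 RPKM only through its 20 hpf library.

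Of 12 genes for transcription factors of epithelial-to-mesenchymal transition, 9 had a mean of at least 1 RPKM. From 20 to 28 hpf 6 were higher (*snai1a*, *snai2*, *twist1b*, *twist2*, *twist3*, *zeb1b*) and *zeb2a* was lower, against 20.5% and 11% of all genes. *snai2*, which represses *cdh1* in other vertebrates, was at 23.8, 51 and 56.9 RPKM at 20, 28 and 36 hpf and 69.5 in siblings. *zeb2a* was at 50.2, 19.2, 4.82 and 6.04 RPKM in the same order, 68.2 in *sox10*:DsRed-only cells, and 51.1 with NICD against 13.9 and 12.1 in the heat-shocked controls.

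9 entries carry cadherin or integrin names in capitals and were not counted as members, and 2 of them, chosen after their values were seen, followed patterns described above. ITGAL, the αL partner of β2 on leukocytes, was at 7.63, 2.39 and 0.0829 RPKM at 20, 28 and 36 hpf and 0.0953 in siblings. CDH19, a type II cadherin known from Schwann cell precursors in mammals, was at 9.66 RPKM in *sox10*:DsRed-only cells and 5.17 with NICD (569 reads), against 0.949 (136 reads) and 0.83 (77 reads) in the heat-shocked controls.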
